A study of Homo sapiens with 9 samples.

Results

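Late recovery from a short heat stress was examined in U937, an established human lymphoma cell line of monocytic character, by setting the 4 arrays from cells recovered for 3 or 6 h against the array of unheated cells. These 5 arrays were chosen by their labels alone from the 9 arrays of the study. The late arrays come from cells heated for 15 min at 42 °C or at 44 °C and then returned to 37 °C for 3 h or for 6 h, and the control cells were kept at 37 °C without treatment. The remaining 4 arrays hold cells at 0 and 1 h after the same treatments and are used here to look again at genes picked on the late arrays. They also enter the floor and the choice of probe set, which were set over all 9 arrays. The array of 0 h after 44 °C also serves as an alternative baseline. All groups share the same line, the same RNA extraction kit and the same array type, Human Genome U133 Plus 2.0, which measures each transcript with a set of short probes (a probe set).

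Each condition is represented by 1 array, so there is no replicate spread, no test and no p-value in what is reported. All 4 late comparisons also share the 1 control array, so an unusual control value of a gene enters all 4 with the same sign. Direction on all 4 late arrays is therefore a rule for choosing genes, not a test of them. Because whole cultures were measured, fewer cells of a type and less RNA per cell cannot be told apart.

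Heat unfolds proteins, and the chaperones that bind them are released from heat shock factor 1 (HSF1), which then forms trimers and binds heat shock elements, inverted repeats of the unit nGAAn, in the promoters of chaperone genes. The newly made HSP70 and HSP40 proteins refold or help to degrade damaged proteins and later help to switch HSF1 off, so the response is known to wane during recovery. Heat is also known to slow general translation, to induce stress genes through the factor ATF4, and to lower many transcripts that growing cells keep high.

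The deposited signals were scaled on each array to a trimmed mean of 100, and signals under 12.5, the median over the arrays, were raised to that floor, so that values below it have no order. Of 19775 genes with a probe set of their own, 13738 were above the floor on at least 1 of the 5 arrays and were counted, and the other 6037 were not. A gene is said to have risen or fallen on an array where its scaled signal was at least 2-fold above or below the control, a log2 fold of 1 or more in size. A fold with the floor on one side is a lower bound and is written "at least". Signals are compared between arrays for the same probe set, not between genes.

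Between 48.3% and 52.6% of probe sets were above the floor, and 3'/5' signal ratios, which rise when RNA is degraded, were 1.18 to 1.36 at ACTB and 0.939 to 1.13 at GAPDH. The scaling and the floor hold the median log2 fold of all counted genes at 0 on each late array, but the 1374 genes with the highest signals had a median of 0.21 at 3 h after 42 °C and of 0.024 to 0.076 on the other late arrays. Monocyte markers were present, and 15 or 16 of the 19 on the array were above the floor on every one of the 5 arrays, with a summed scaled signal of 14329 on the control and 13322 to 16071 on the late arrays. Of 8 B cell markers 2 to 4 were above the floor, and of 6 erythroid markers 3 or 4.

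Late recovery showed a small set of transcripts that differed from the control on all 4 arrays. Of the 13738 counted genes, 91 (0.662%) rose on all 4 late arrays and 42 (0.306%) fell on all 4. With no requirement on size, 2318 genes (16.9%) were above the control on all 4 and 3226 (23.5%) were below it. The rises lead with chaperones and their partners, and the falls include MYC, the transcription factor that drives growth genes.

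On the single arrays, 392 genes (2.85%) rose and 610 (4.44%) fell at 3 h after 42 °C. At 6 h after 42 °C, 512 (3.73%) rose and 470 (3.42%) fell. At 3 h after 44 °C the counts were the smallest of the 4, with 230 rises (1.67%) and 279 falls (2.03%). At 6 h after 44 °C, 496 (3.61%) rose and 523 (3.81%) fell. Which direction was the larger depended on the scaling for 3 of the 4 arrays. Quantile normalisation gave 442 rises and 518 falls at 6 h after 42 °C, 269 and 215 at 3 h after 44 °C, and 547 and 403 at 6 h after 44 °C.

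**Figure D1:**
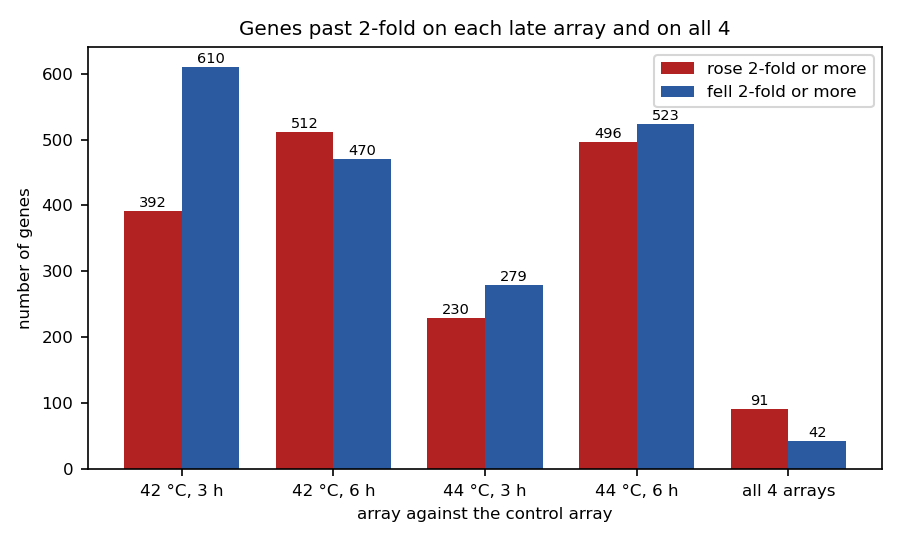
Number of genes (y axis) that rose or fell at least 2-fold against the control on each late array and on all 4 together (x axis), 1 array per condition. The array of 3 h after 44 °C has the fewest calls in either direction, 230 and 279, and 91 rises and 42 falls were shared by all 4.

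The genes nearest the 2-fold limit show how narrow it is. Just inside, by the weakest of their 4 log2 folds, lay FRG1JP at 1.004, TNFAIP3 at 1.013 and PMAIP1 at 1.016 among the rises, and HDHD3 and KLF13 at -1.007 and PPM1F at -1.010 among the falls. Just outside lay the HSP40 gene DNAJA1 at 0.997, IL10RA at 0.997 and ADRB1 at 0.990, and on the side of the falls DDX28 at -0.995, CEBPA at -0.994 and FBXL19 at -0.986. In all, 19 of the 91 rises and 18 of the 42 falls had a weakest log2 fold under 1.1 in size.

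HSPA6, a strictly stress-inducible HSP70, had the highest weakest fold of all. Its scaled signal was 138 on the control array, 10652 and 4525 at 3 and 6 h after 42 °C, and 6645 and 6587 at 3 and 6 h after 44 °C. These are rises of 32.8 to 77.2-fold, with the highest late value at 3 h after 42 °C and the lowest at 6 h after 42 °C, and the pair of 44 °C arrays nearly equal.

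DNAJA4, an HSP40 that delivers clients to HSP70, read 20.5 on the control array, 894 and 877 at 3 and 6 h after 42 °C, and 557 and 1244 at 3 and 6 h after 44 °C. It rose 27.1 to 60.6-fold, most at 6 h after 44 °C, although the remaining DNAJA4 probe sets had mean late log2 folds from 1.21 to 4.40. DNAJB1, the HSP40 that acts with HSP70 in the nucleus and cytosol, read 742 on the control array, 12298 and 6359 at 3 and 6 h after 42 °C, and 6661 and 7378 at 3 and 6 h after 44 °C. Its rise of 8.57 to 16.6-fold was largest at 3 h after 42 °C, and the other 3 arrays were close together.

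BAG3, which releases clients from HSP70 and hands them to autophagy, read 176 on the control array, 5118 and 3347 at 3 and 6 h after 42 °C, and 2869 and 3602 at 3 and 6 h after 44 °C. The rise was 16.3 to 29.1-fold and every late array was far above the control. ZFAND2A, a zinc finger protein that associates with the proteasome under stress, read 185 on the control array, 4122 and 3111 at 3 and 6 h after 42 °C, and 2669.8 and 4119 at 3 and 6 h after 44 °C, a rise of 14.5 to 22.3-fold. For both genes the array of 3 h after 44 °C had the lowest late value.

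Other chaperones rose from a level the floor hides or from a high resting level. SERPINH1, the collagen chaperone HSP47, was at the floor on the control and read 475, 506, 102 and 371 at 3 and 6 h after 42 °C and at 3 and 6 h after 44 °C, at least 8.14-fold to at least 40.3-fold higher. CRYAB, the small heat shock protein alpha B crystallin, was at the floor on the control too and read 110.4, 115, 102 and 175 in the same order, at least 8.12-fold higher on each. SERPINH1 was lowest at 3 h after 44 °C, and the 4 CRYAB values stayed within 0.78 log2 units of each other.

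HSPH1, the HSP110 that exchanges nucleotide on HSP70, read 1464 on the control array, 9422 and 8914 at 3 and 6 h after 42 °C, and 4471 and 7209 at 3 and 6 h after 44 °C. HSPB1, the small heat shock protein HSP27, read 2215 on the control array, 9119.9 and 8176 at 3 and 6 h after 42 °C, and 4904 and 6867 at 3 and 6 h after 44 °C. Both were abundant before heating, rose 3.05 to 6.44-fold and 2.21 to 4.12-fold, and were lowest among the late arrays at 3 h after 44 °C. HSPA1L, an HSP70 encoded beside the main inducible pair, had log2 folds of 3.47, 1.70, 2.66 and 2.47 in the order 3 and 6 h after 42 °C, 3 and 6 h after 44 °C, an order used for all log2 folds given in 4.

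**Figure D2:**
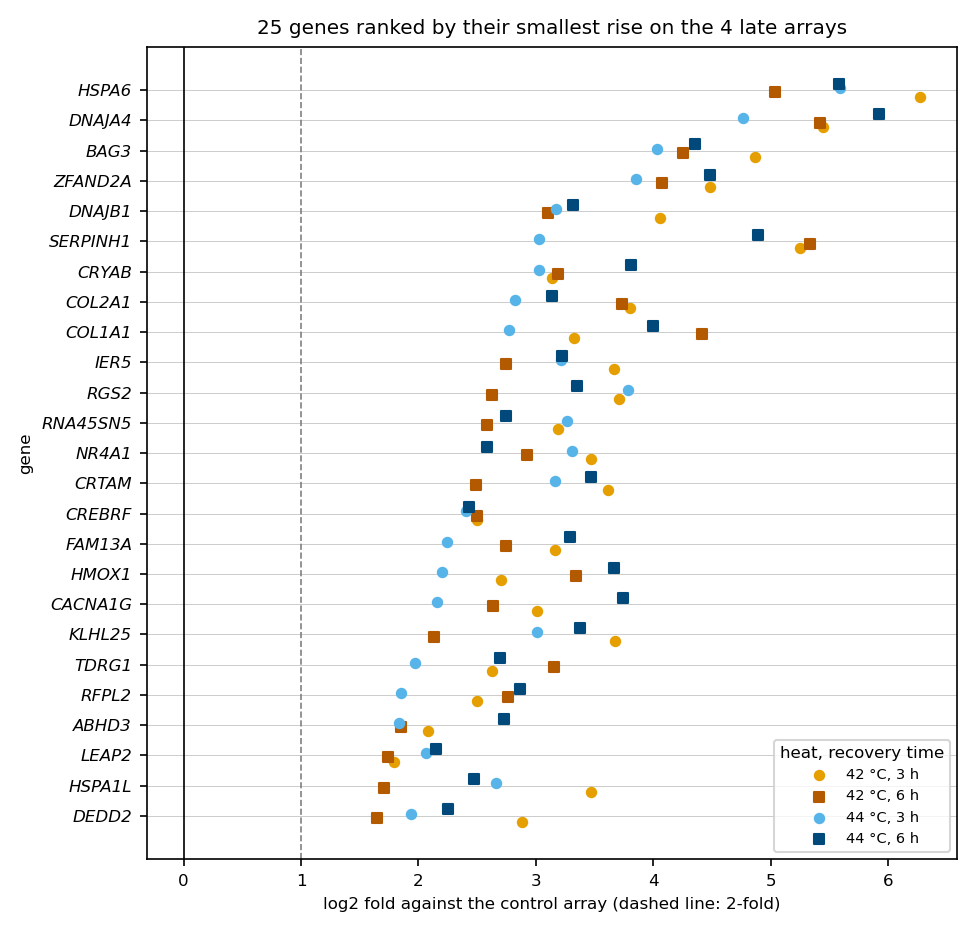
Log2 fold against the control (x axis) on each of the 4 late arrays, 1 point per array, for the 25 genes whose smallest rise was largest (y axis, in that order). HSPA6 stands at the top with log2 folds from 5.03 to 6.27, and the 3 h array after 44 °C is often the lowest point of a gene.

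Only some members of each chaperone list rose. Of 20 counted heat shock chaperones, 6 rose on all 4 arrays, none fell, and 13 were above the control on all 4, and the median over the list of the mean late log2 fold was 0.58, against 0.018 over all 13738 counted genes. Of 24 counted partners of HSP70 and HSP90, 3 rose on all 4 (BAG3, CHORDC1 and FKBP4) and 13 were above the control on all 4, with a median of 0.42. Of 26 HSP40 genes only DNAJA4 and DNAJB1 rose on all 4, 9 were above and 4 were below the control on all 4, and the median was 0.10. Beside the counts of these and all later lists stand the shares over all counted genes. On all 4 arrays 0.662% rose, 0.306% fell, 16.9% were above the control and 23.5% were below it.

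The partners that rose were moderate. FKBP4, an immunophilin of the HSP90 complex, had log2 folds of 1.62, 1.82, 1.02 and 1.67. CHORDC1, which binds HSP90 and is induced by heat, had 1.30, 1.25, 1.15 and 1.60. HSP90AA1, the inducible HSP90, reached 2-fold only at 3 h after 42 °C, with log2 folds of 1.06, 0.71, 0.16 and 0.37.

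Clearance genes rose only in part too. Of 17 counted genes on the list for ubiquitin and aggregate clearance, ZFAND2A and DEDD2 rose on all 4. DEDD2 is a death effector domain protein, and its place on that list is not evidence of a role in clearance. None of 27 proteasome subunits rose on any of the 4 arrays, though 14 were above and 1 below the control on all 4, with a median of 0.14. By array their medians were 0.35, 0.16, 0.087 and 0.15, where the genes with the highest signals had 0.21 at 3 h after 42 °C. The part of that shift here was not tested. Among 4 counted heat shock factor genes none rose or fell on all 4, and HSF1 itself had log2 folds of -0.14, -1.05, -0.21 and -0.69, past 2-fold at 6 h after 42 °C alone. The other HSF1 probe set above the floor went the opposite way, with a mean late log2 fold of 0.49, so no direction is given for HSF1.

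The promoters of the rises were searched for 3 adjacent units of a heat shock element, spelled GAA, any 2 bases, TTC, any 2 bases and GAA, a run of 13 bases that reads as TTC, GAA and TTC on the other strand. Promoters are windows of 300 bases from RefSeq on GRCh38.p14, 250 before and 50 after each start, and both strands were read. Elements that overlap were counted once for a gene. Of the 91 genes that rose on all 4 arrays, 66 had a promoter in the table and 6 of these held an element (9.09%), against 62 of 11022 counted genes (0.563%) and none of 30 that fell. The genes are HSPA6, SERPINH1, CHORDC1, ABHD3, TDRG1 and MS4A6A. A match of letters is a description and not evidence of binding.

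The elements of 5 of these genes are printed 5′ to 3′ on the gene's strand, with the element in capitals, because they show how differently spaced from the start and how differently written a shared element can be.
HSPA6: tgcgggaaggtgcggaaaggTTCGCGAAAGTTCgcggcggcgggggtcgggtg
SERPINH1: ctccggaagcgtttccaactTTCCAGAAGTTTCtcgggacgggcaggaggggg
CHORDC1: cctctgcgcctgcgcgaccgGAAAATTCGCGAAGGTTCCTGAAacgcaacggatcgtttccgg
ABHD3: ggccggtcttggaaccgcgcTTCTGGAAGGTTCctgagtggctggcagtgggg
TDRG1: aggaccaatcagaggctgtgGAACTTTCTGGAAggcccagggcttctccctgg
The HSPA6 window is chr1:161524446-161524498 on the plus strand, with the element 74 to 62 bases before the start. The SERPINH1 window is chr11:75562157-75562209 on the plus strand, with the element 76 to 64 bases before the start. In CHORDC1, chr11:90223067-90223129 on the minus strand, 3 overlapping elements fill the 23 bases from 60 to 38 before the start. The ABHD3 window is chr18:21704887-21704939 on the minus strand, with the element 145 to 133 bases before the start. The TDRG1 window is chr6:40378190-40378242 on the plus strand, with the element 127 to 115 bases before the start. ABHD3, which cleaves phospholipids, had log2 folds of 2.08, 1.85, 1.83 and 2.72, and TDRG1, at the floor on the control, had at least 1.97 on every late array.

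Stress response genes outside the chaperones also rose on all 4 arrays. HMOX1, the enzyme that breaks down haem and a target of NRF2, read 114 on the control array, 745 and 1158 at 3 and 6 h after 42 °C, and 526 and 1449 at 3 and 6 h after 44 °C. Unlike HSPA6, it was higher at 6 h than at 3 h after both temperatures, with rises of 4.60 to 12.7-fold. No other of the 18 counted NRF2 targets rose on all 4.

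Among 22 counted genes of the integrated stress response, SESN2, CHAC1 and PPP1R15A rose on all 4, 9 were above and 3 below the control on all 4, and the median was 0.18. SESN2, which restrains the growth kinase mTORC1, read 101 on the control array, 334 and 311 at 3 and 6 h after 42 °C, and 329 and 315 at 3 and 6 h after 44 °C, and its 4 log2 folds stayed within 0.10 of each other. PPP1R15A, the phosphatase subunit that restores translation, had log2 folds of 1.89, 1.20, 1.74 and 1.55. CHAC1, which degrades glutathione, had 2.17, 1.25, 2.53 and 1.24, with both 6 h arrays below both 3 h arrays.

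ATF3 and DDIT3, stress transcription factors of the same pathway, did not rise on all 4. ATF3 had log2 folds of 1.76, 0.73, 2.70 and 1.05 and DDIT3 had 1.09, 0.42, 0.45 and 0.69. Of 20 counted genes of the unfolded protein response, only DNAJB9, an HSP40 of the endoplasmic reticulum, rose on all 4. DNAJB9 read 178 on the control array, 831 and 428 at 3 and 6 h after 42 °C, and 743 and 715 at 3 and 6 h after 44 °C, lowest of the late values at 6 h after 42 °C.

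Immediate early genes are those that many stimuli switch on within minutes. Of 27 counted, 6 rose on all 4 arrays (IER5, DUSP1, FOS, FOSB, KLF2 and NR4A1), none fell on all 4, 11 were above and 4 below the control on all 4, and the median was 0.37. IER5 read 524 on the control array, 6652 and 3506 at 3 and 6 h after 42 °C, and 4847 and 4894 at 3 and 6 h after 44 °C. NR4A1, an orphan nuclear receptor, was at the floor on the control and read 139, 95.2, 124 and 75.04 on the late arrays, at least 5.98-fold higher on each. Its probe set is of a kind that can also bind related transcripts, and its other probe sets had mean late log2 folds from 0.12 to 1.30. Of the 6, only IER5 also passed under every other setting of scaling, floor and probe set choice. FOS and FOSB did not pass under scaling to the array median.

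DUSP1, a phosphatase that switches off MAP kinases, spread the most of all 91 rises, over 2.70 log2 units. It read 59.7 on the control array, 641 and 155 at 3 and 6 h after 42 °C, and 1009 and 336 at 3 and 6 h after 44 °C, so that both 3 h arrays were above both 6 h arrays. Its other probe sets gave mean late log2 folds from -0.20 to 0.94, so the rise rests on 1 probe set. KLF2, a zinc finger factor that keeps leukocytes quiescent, had log2 folds of 2.55, 1.81, 2.52 and 1.40. The other KLF2 probe set above the floor had a mean late log2 fold of 0.13. FOS, a subunit of AP-1, had 1.58, 1.11, 1.35 and 1.60.

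Of 22 counted leukocyte receptors and their regulators, RGS2 rose and GPR84 fell on all 4, 1 was above and 10 were below the control on all 4, and the median was -0.24. RGS2, which shortens signalling from G protein-coupled receptors, read 57.3 on the control array, 749 and 353 at 3 and 6 h after 42 °C, and 789 and 583 at 3 and 6 h after 44 °C, a rise of 6.16 to 13.8-fold. IL2RB and MS4A6A, also among the 91, are not on that list. IL2RB, a chain of the interleukin-2 receptor, read 41.2 on the control array, 293 and 435 at 3 and 6 h after 42 °C, and 124 and 341 at 3 and 6 h after 44 °C. MS4A6A, a membrane protein of myeloid cells, read 33.3 on the control array, 295 and 416 at 3 and 6 h after 42 °C, and 103 and 413 at 3 and 6 h after 44 °C. Both IL2RB and MS4A6A were lowest among the late arrays at 3 h after 44 °C. The MS4A6A probe set, like that of NR4A1, is of a kind that can also bind related transcripts. Its mean late log2 fold was 3.01, and the 6 other MS4A6A probe sets above the floor had 0.43 to 2.43.

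IL7R, the interleukin-7 receptor chain and a T cell marker, read 18.2 on the control array, 134 and 130.3 at 3 and 6 h after 42 °C, and 41.9 and 164 at 3 and 6 h after 44 °C. It was 1 of 10 T cell markers on the array, of which 2 or 3 were above the floor on each of the 5 arrays. Their summed scaled signal was 133 on the control and 161 to 277 on the late arrays. Markers at the floor enter these sums at the floor value, so the sums are not measured levels of the whole list. CD3E and CD3G were at the floor on all 5. Besides IL7R, CD2 and LCK were above the floor on the control, CD2 at 3 and 6 h after 42 °C and at 6 h after 44 °C, CD5 at 3 and 6 h after 42 °C and at 3 h after 44 °C, and CD3D at 3 h after 44 °C. The part of that list in the IL7R result was not tested.

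Several rises came from genes that were at the floor in the control, 19 of the 91 in all. COL2A1, the fibrillar collagen chain of cartilage, read 175, 167, 88.7 and 111 on the late arrays in the usual order, at least 7.07-fold higher on each. COL1A1, a fibrillar collagen chain of bone and skin, read 126, 268, 85.3 and 200.5, at least 6.80-fold higher on each. The other COL1A1 probe sets gave mean late log2 folds from 0.01 to 1.64. COL1A1 is also 1 of 12 epithelial and fibroblast markers, none of which was above the floor on the control. On the late arrays 1 to 3 of them were (COL1A1, KRT8 and KRT18). Their sum, with markers at the floor counted at the floor value, was 235 to 429 late. The sum of 151 on the control is the floor alone and not a measured level. The part of that list in the result was not tested.

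FAM13A was at the floor on the control with late signals of 112, 84.2, 59.3 and 122. CACNA1G, a T-type calcium channel, was at the floor there too and read 101, 77.9, 55.8 and 168 late. CRTAM, a receptor of activated lymphocytes, was close to the floor there at 13.1 and read 161, 73.8, 118 and 146 late. With the floor raised to the 70th percentile, a scaled signal of 51.4, 47 of the 91 rises still passed, and SERPINH1, CRYAB, COL2A1, COL1A1, NR4A1, CRTAM, FAM13A, CACNA1G, TDRG1, IL7R and CSRP2 did not.

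Among the remaining leading rises, CREBRF, a regulator of the stress factor CREB3, read 32.4 on the control array, 183 and 183 at 3 and 6 h after 42 °C, and 171 and 175 at 3 and 6 h after 44 °C. Its 4 log2 folds of 2.50, 2.50, 2.40 and 2.43 lay closer together than those of any gene above it in the ranking. KLHL25, a substrate adaptor of a ubiquitin ligase, had log2 folds of 3.67, 2.13, 3.01 and 3.38. RNA45SN5, a gene for the ribosomal RNA precursor, read 85.3 on the control array, 777 and 510.4 at 3 and 6 h after 42 °C, and 820.2 and 573 at 3 and 6 h after 44 °C, higher at 3 h than at 6 h after both temperatures.

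Others of the 91, picked here for their known roles after their values were seen, span several functions. CGAS, the sensor of cytosolic DNA, had log2 folds of 2.48, 1.62, 2.38 and 2.04. CLU, the secreted chaperone clusterin, had values from 1.14 to 1.57. ULBP2, a stress ligand that natural killer cells recognise, had 1.66, 1.65, 1.02 and 1.60. All of these passed 2-fold on each late array, CGAS by the widest margin. With the median over a gene's probe sets, CGAS, CLU and ULBP2 did not pass. The other CLU probe sets had mean late log2 folds from 0.03 to 1.39.

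TNFRSF10D, a decoy receptor for the death ligand TRAIL, had log2 folds of 2.51, 1.22, 1.97 and 2.14. SESN3, a relative of SESN2, had 1.60, 1.58, 1.26 and 2.11. FBXO32, a ubiquitin ligase subunit known from muscle atrophy, was at the floor on the control and had at least 1.86, 2.01, 1.34 and 1.83. PLIN2, the coat protein of lipid droplets, had 1.36, 2.28, 1.18 and 2.03. The SESN3 and FBXO32 values differ in which array is highest, so these genes do not share 1 order over the late arrays. With the median over a gene's probe sets, SESN3, FBXO32 and PLIN2 did not pass, and TNFRSF10D did not under scaling to the array median. Other probe sets had mean late log2 folds from 0.05 to 1.39 for SESN3, from 0.01 to 1.75 for FBXO32, and of 0.22 for PLIN2.

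Genes of cell death and cell cycle control rose only in part. PMAIP1, the BH3-only protein NOXA, was the only 1 of 25 counted genes on the proapoptotic list to rise on all 4. It read 496 on the control array, 1715 and 1004 at 3 and 6 h after 42 °C, and 1326 and 1335 at 3 and 6 h after 44 °C. DEDD2, which rose on all 4 too, is not on that list. CDKN1A, the inhibitor p21, had log2 folds of 1.60, 0.60, 1.31 and 1.22 and so missed the limit at 6 h after 42 °C. CASP8, the initiator caspase of death receptors, rose at 6 h after both temperatures and not at 3 h, with -0.19, 1.08, 0.34 and 1.01.

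None of 16 counted antiapoptotic genes rose or fell on all 4 arrays. MCL1 had log2 folds of -0.035, -0.15, 0.048 and 0.12, BCL2L1 had -0.46, -0.55, -0.30 and -0.22, and BCL2 had -0.90, -0.90, -0.61 and -1.06. BCL2 was below the control on every late array and passed 2-fold at 6 h after 44 °C alone. TNFAIP3, the NF-kB inhibitor A20, was the only 1 of 20 counted NF-kB targets and cytokines to rise on all 4, with 1.24, 1.21, 1.01 and 1.08.

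The falls were fewer and shallower. None of the 42 passed 4-fold on all 4 arrays, against 19 of the 91 rises, but a fall cannot exceed the distance to the floor, which 13 of the 42 reached on at least 1 late array and 6 on all 4. MYC read 3123 on the control array, 607 and 1199.8 at 3 and 6 h after 42 °C, and 787 and 859 at 3 and 6 h after 44 °C. It fell 2.60 to 5.15-fold, most at 3 h after 42 °C and least at 6 h after 42 °C. Of the other 11 counted genes of the MYC and MAX network none fell on all 4.

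GPR84, a receptor for medium-chain fatty acids on myeloid cells, read 296 on the control array, 70.2 and 62.2 at 3 and 6 h after 42 °C, and 111 and 91.7 at 3 and 6 h after 44 °C. TNFRSF12A, the receptor of the cytokine TWEAK, read 171 on the control array, 28.9 and 64.5 at 3 and 6 h after 42 °C, and 63.1 and 67.7 at 3 and 6 h after 44 °C. MARS2, the mitochondrial methionyl-tRNA synthetase, read 329.8 on the control array, 71.2 and 128 at 3 and 6 h after 42 °C, and 129 and 107 at 3 and 6 h after 44 °C. Each was lower on every late array than on the control by at least 2.52-fold.

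KDM4B, a histone demethylase, had log2 folds of -1.44, -1.37, -1.34 and -1.56. NACC2, a transcriptional repressor, had -2.45, -1.24, -1.45 and -1.96. TNFAIP8L2, a brake on innate immune signalling, had -2.38, -1.13, -2.01 and -1.52, with both 3 h arrays lower than both 6 h arrays. MRPL20-AS1, an antisense RNA, had -1.35, -1.54, -1.84 and -1.45. An antisense gene overlaps another gene, and only its own probe set was used.

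NFE2, a transcription factor of megakaryocytes and red cells, and P2RY2, a receptor for extracellular nucleotides, were picked for their roles after their values were seen. NFE2 had log2 folds of -1.41, -1.05, -1.74 and -1.44 and P2RY2 had values from -1.59 to -1.02. Both are shallow falls whose weakest value lies close to the limit.

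Falls that end at the floor are bounds. TLR9, the endosomal receptor for unmethylated DNA, went from 34.98 on the control to the floor on all 4 late arrays, at least 2.79-fold lower. HHAT, SGSH, SEC31B and FAM86B3P also reached the floor on all 4, from control signals of 29.4, 27.3, 28.3 and 29.1. DGAT2, which makes triglycerides, spread the most among the falls, with 129 on the control and 12.5, 38.4, 58.2 and 54.4 late, the value at 3 h after 42 °C being the floor.

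**Figure D3:**
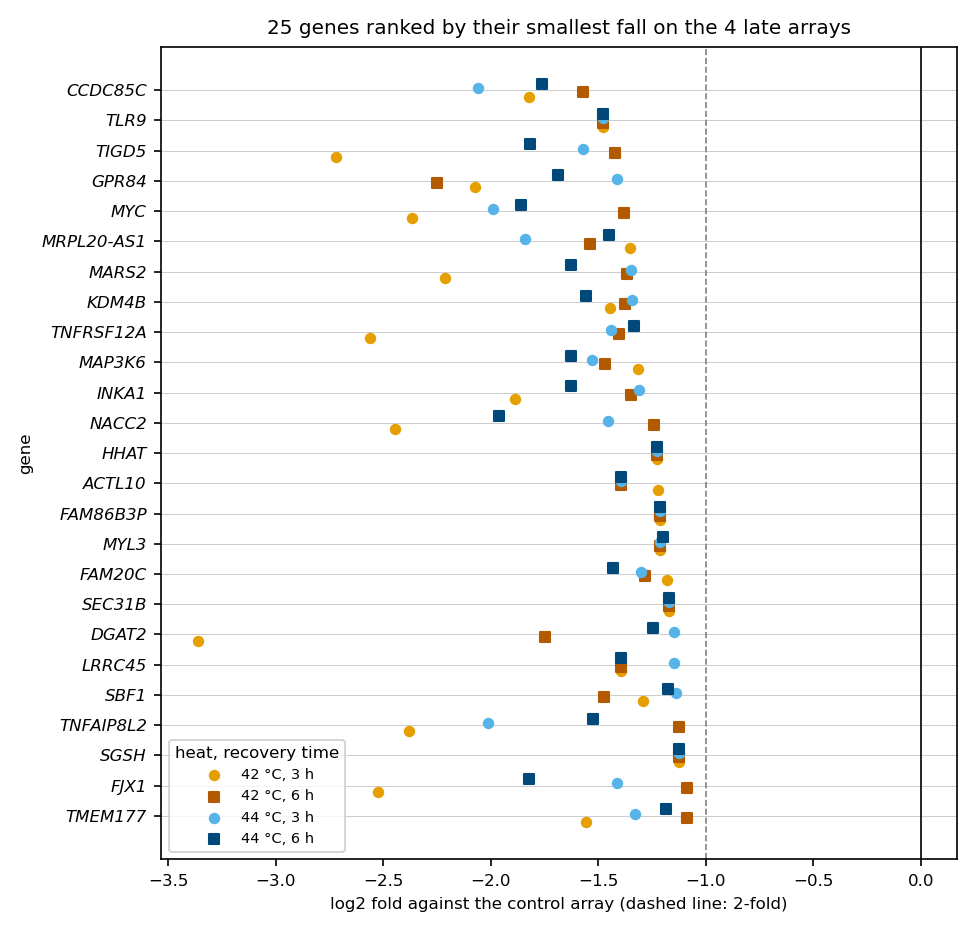
Log2 fold against the control (x axis) on each of the 4 late arrays, 1 point per array, for the 25 genes whose smallest fall was largest (y axis, in that order). Most points lie between -1 and -2.5, a shallower spread than that of the rises, and the lowest is DGAT2 at -3.36, a bound set by the floor.

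Lists tied to growth differed in direction. Of 23 counted ribosome biogenesis genes none fell on all 4, but 13 were below and 1 was above the control on all 4, and the median was -0.38. Of 31 ribosomal protein genes 1 was above and none below, with a median of 0.12 that hides a change of sign. Their median was 0.50 and 0.26 at 3 and 6 h after 42 °C, and -0.19 and -0.12 at 3 and 6 h after 44 °C. The genes with the highest signals had a median of 0.21 at 3 h after 42 °C, and the part of that shift here was not tested. Of 17 tRNA synthetases 5 were above and 1 below, with a median of 0.12. Of 25 S phase genes 6 were above and 5 below, and of 30 mitosis genes 8 were above and 5 below. None of these 4 lists had a gene that rose or fell on all 4. Over all counted genes 16.9% were above and 23.5% below. The shares were 24% and 20% for S phase and 26.7% and 16.7% for mitosis, so no direction is given for these lists.

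Of 14 counted myeloid transcription factors none fell on all 4, 8 were below and none above, with a median of -0.50. CEBPA, the factor that directs granulocyte and monocyte differentiation, read 2122 on the control array, 574 and 1066 at 3 and 6 h after 42 °C, and 948 and 821 at 3 and 6 h after 44 °C. It missed 2-fold narrowly at 6 h after 42 °C. Under scaling to the array median it passed 2-fold on all 4, so its place outside the falls depends on the scaling.

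Of 18 counted cholesterol synthesis genes, 9 were below and 1 was above the control on all 4, none fell on all 4, and the median was -0.23. Of 26 counted oxidative phosphorylation genes none rose on any late array, while 15 were above and none below on all 4, with a median of 0.15. By array their medians were 0.31, 0.16, 0.046 and 0.10, where the genes with the highest signals had 0.21 at 3 h after 42 °C. The part of that shift here was not tested. Of 318 counted ZNF genes 2 rose on all 4, none fell, 35 were above and 73 (23.0%) below, where 23.5% of all counted genes were below. TFRC, the transferrin receptor, had log2 folds of -1.13, -1.13, -0.70 and -1.004 and so fell on 3 of the 4.

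GPR183, an oxysterol receptor given with the comparison as a marker, did not fall on all 4 late arrays. It read 522 on the control array, 280.0 and 592 at 3 and 6 h after 42 °C, and 87.8 and 433 at 3 and 6 h after 44 °C. It fell at 3 h after 44 °C by 5.95-fold, but at 6 h after 42 °C its signal was above the control by 0.18 on the log2 scale. Scaling to the array median shifts the median of all genes on that array to -0.19. The sign of GPR183 there thus depends on the scaling, and no direction is given for it. DNAJA4, BAG3, ZFAND2A and MYC, the other markers given with the comparison, passed 2-fold on all 4. Because they came with it, their passing is no check of it. They were not particular to late recovery. At 1 h their log2 folds were 5.23, 4.09, 3.24 and -2.47 after 42 °C. After 44 °C they were 3.01, 2.31, 1.76 and -0.71, so that only MYC had not passed 2-fold there.

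Some transcripts separated the times instead. IFIT1, an interferon-induced protein that binds foreign RNA, was at the floor on the control and read 16.05, 319, 12.5 and 369 late. IFIT2, of the same family, read 13.3 on the control and 19.5, 298, 12.5 and 384 late. IFIT3 read 70.1 on the control and 23.4, 437, 37.5 and 411 late, below the control on both 3 h arrays and above it on both 6 h arrays.

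Of 20 counted interferon response genes none rose at 3 h after either temperature and 2 fell at 3 h after 42 °C. At 6 h after each temperature 5 of the 20 rose and none fell, where 3.73% and 3.61% of all counted genes rose after 42 and 44 °C. None rose on all 4. CCL2, a chemokine for monocytes, fell on 3 of the 4 arrays, with log2 folds of -1.88, -2.26, -0.77 and -2.52. IL1B, an inflammatory cytokine, rose at 3 h after both temperatures and not at 6 h, with 1.41, 0.20, 1.02 and 0.39. In all, 4 genes rose on at least 1 late array and fell on at least 1 other: IFIT3, GNAO1, RASEF and EGR3.

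The 91 rises differed among themselves by time and temperature. The median log2 fold of the 91 was 2.04 at 3 h and 1.69 at 6 h after 42 °C, and 1.51 at 3 h and 2.01 at 6 h after 44 °C. The smallest of the 4 folds was on the 3 h array after 44 °C for 52 of the 91, and the largest was on the 3 h array after 42 °C for 39 and on the 6 h array after 44 °C for 31. Comparing the late arrays with each other needs no control array. These are the arrays that chose the genes, and the values are a description.

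At 3 h, 79 of the 91 were lower after 44 °C than after 42 °C, with a median log2 difference of -0.46, where 46.1% of all counted genes were lower. Under scaling to the array median 65 were lower, with a median of -0.31, and all genes then had a median of 0.091. None of the 91 was at least 2-fold higher there (1.47% of all counted genes were) and 10 were at least 2-fold lower (1.40% of all). At 6 h, 63 of the 91 were higher after 44 °C, with a median of 0.30, and 4 by at least 2-fold (1.22% of all), where 42.9% of all counted genes were higher. Under scaling to the array median 80 were higher, with a median of 0.63, and all genes then had a median of 0.24.

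From 3 to 6 h the 91 changed by a median of -0.10 after 42 °C, where 12 were at least 2-fold lower at 6 h (1.73% of all counted genes were) and 1 was at least 2-fold higher (3.41% of all). Under scaling to the array median that median was -0.29, with -0.13 over all genes. After 44 °C they changed by a median of 0.33, and 19 were at least 2-fold higher (1.90% of all). HSPA6, HSPA1L, KLHL25 and DUSP1 are among the genes at least 2-fold lower at 6 h after 42 °C, and IL7R, MS4A6A, RHEBL1 and MBNL2 among those at least 2-fold higher at 6 h after 44 °C.

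The change from 3 to 6 h was larger, or less negative, after 44 °C than after 42 °C for 82 of the 91, by a median of 0.72, against 6534 of all 13738 counted genes and a median of -0.0097. Under quantile normalisation the count was 84 with a median of 0.69, and under scaling to the array median it was 86 with a median of 0.90, where all genes shifted by 0.13. For the 42 falls the difference was below 0 in 28, where it was below 0 in 50.9% of all counted genes. The median over the falls was -0.34, which became -0.25 and -0.21 under those scalings.

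**Figure D4:**
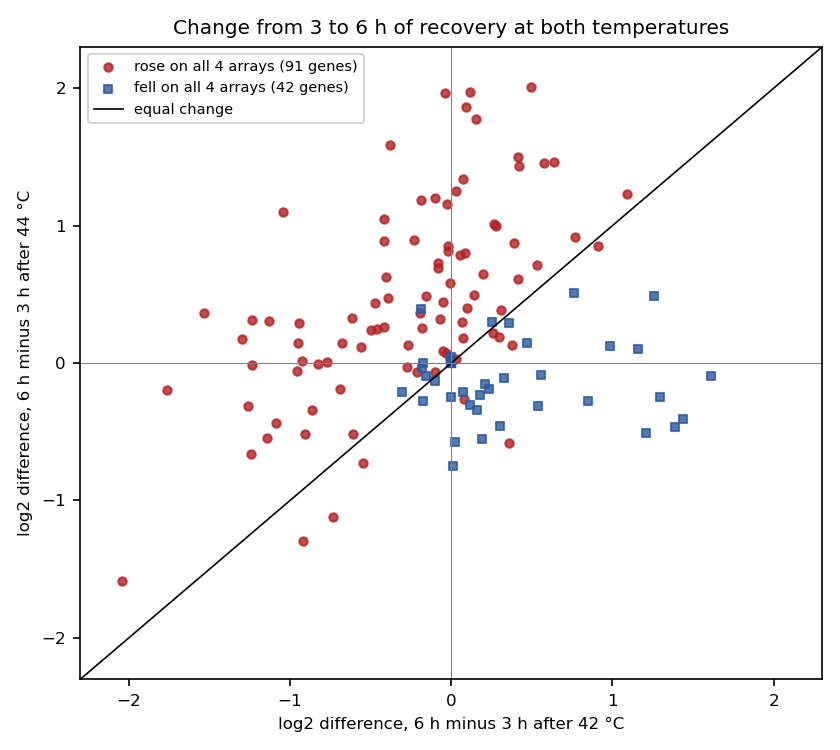
Log2 change from 3 to 6 h after 42 °C (x axis) against that after 44 °C (y axis), 1 point per gene that rose or fell on all 4 late arrays. For 82 of the 91 rises the change after 44 °C is the higher of the 2.

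RHEBL1, a small GTPase related to the mTOR activator RHEB, is among the rises with the widest range over the late arrays. It read 37.2 on the control array, 312 and 338 at 3 and 6 h after 42 °C, and 88.1 and 346 at 3 and 6 h after 44 °C. MBNL2, a splicing regulator, read 102 on the control array, 602 and 800.4 at 3 and 6 h after 42 °C, and 244 and 689 at 3 and 6 h after 44 °C, and CSRP2, a LIM domain protein, was at the floor on the control and read 77.8, 86.4, 32.9 and 113 late. In all 3 the array of 3 h after 44 °C was below each of the other late arrays.

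The arrays of 0 and 1 h were not used to choose the genes, and their difference involves neither the control nor a late array. From 0 to 1 h after 42 °C, 83 of the 91 rises increased, where 46.3% of all counted genes did. The median was 0.77 for the rises and 0 for all counted genes. By at least 2-fold, 31 of the rises increased, against 412 of all counted genes (3.00%). From 0 to 1 h after 44 °C, 77 of the 91 increased, where 42.6% of all counted genes did, with a median of 0.59. By at least 2-fold, 24 of them increased, against 289 of all counted genes (2.10%). Each value still rests on 1 array at each end.

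The falls were read in the same way. From 0 to 1 h after 42 °C, 28 of the 42 decreased, where 42% of all counted genes did, with a median of -0.12. None decreased by 2-fold (0.604% of all counted genes were at least 2-fold lower), and 2 increased by at least 2-fold (3.00% of all). After 44 °C, 33 of the 42 decreased, where 45% of all counted genes did, with a median of -0.48. By at least 2-fold, 7 of them decreased (1.16% of all). MYC had already reached 614 at 0 h after 42 °C and was at 2567 and 1914 at 0 and 1 h after 44 °C.

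**Figure D5:**
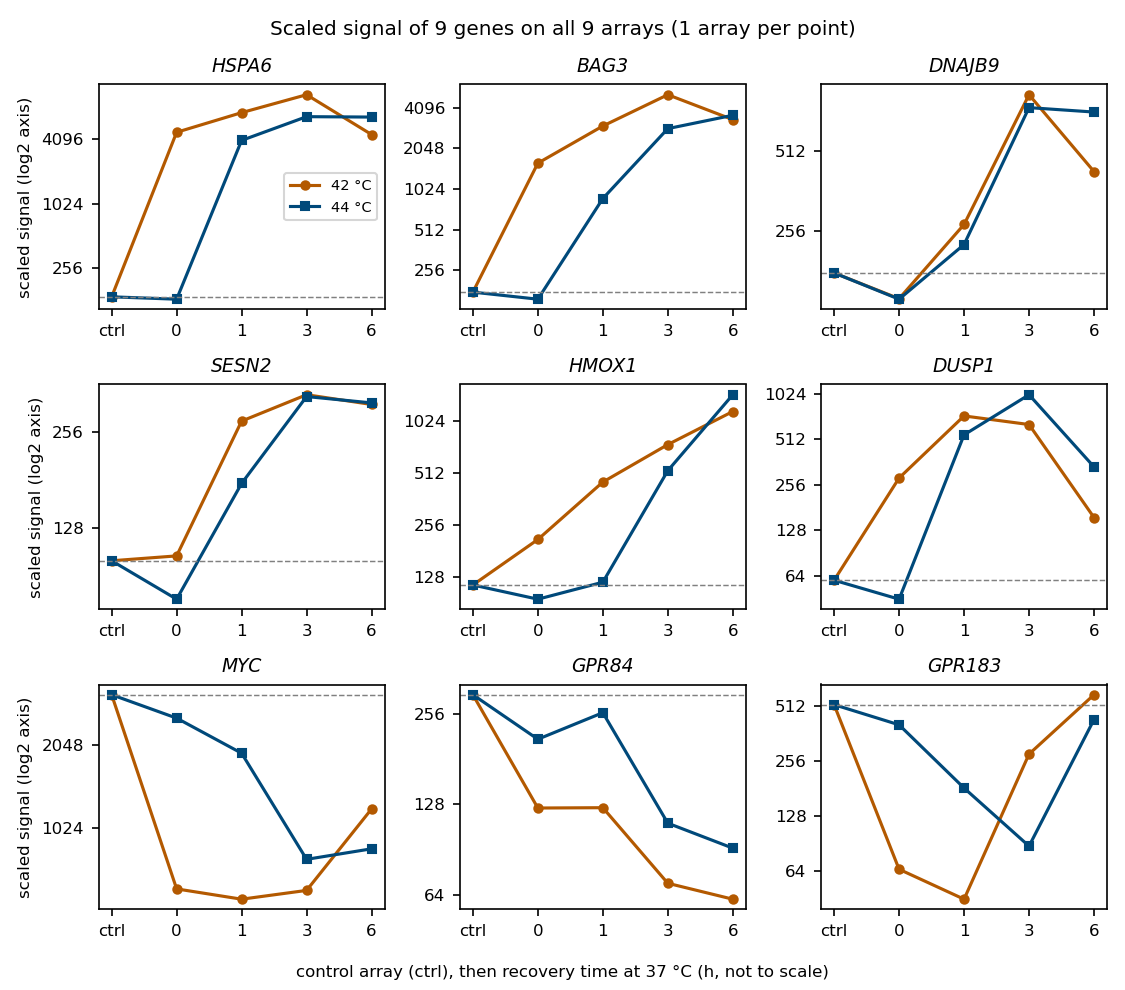
Scaled signal on a log2 axis (y) on the control array and at 0, 1, 3 and 6 h of recovery (x, not to scale) for 9 genes, 1 array per point, with the control value as a dashed line. At 0 h the 44 °C values of HSPA6 and BAG3 are near the control while the 42 °C values are far above it, and by 3 h both temperatures are high.

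The shared control was replaced by the array of 0 h after 44 °C, on which HSPA6 read 131 and BAG3 156, near their control values. Of the 91 rises 66 also passed on all 4 late arrays against that array, and of the 42 falls 21 did. HSPB1, FKBP4, CHORDC1, FOS, MS4A6A, PLIN2 and LEAP2 are among the rises that did not, and GPR84, TNFRSF12A, KDM4B, CCDC85C, INKA1 and NT5DC3 among the falls that did not. That array is from heated cells, so a gene that heat had already moved the same way at 0 h loses size against it. A gene moved the other way gains size, as RNA45SN5 did, from a weakest log2 fold of 2.58 to 3.61. A rise at or below its control value at 0 h, or a fall at or above it, passes against that array by construction. For such genes, HSPA6 and BAG3 among them, passing is no further check.

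Across 5 other settings of scaling, floor and probe set choice, 25 rises and 11 falls passed on all 4 late arrays each time. The 25 include HSPA6, DNAJA4, BAG3, ZFAND2A, DNAJB1, IER5, RGS2, CREBRF, HMOX1, SESN2, HSPH1 and HSPB1, and 22 of them also passed against the 0 h array. The 11 falls are GPR84, MYC, MRPL20-AS1, MARS2, TNFRSF12A, INKA1, SBF1, TNFAIP8L2, SAPCD2, FAM78A and C3orf80. Of these MYC, MRPL20-AS1, MARS2, SBF1, TNFAIP8L2 and SAPCD2 also passed against the 0 h array. For MARS2, SBF1, TNFAIP8L2 and SAPCD2, which read higher on that array than on the control, this followed by construction. Scaling to the array median left FOS, CHAC1, PPP1R15A, PMAIP1, TNFAIP3 and CHORDC1 short of 2-fold on their weakest array, with log2 folds from 0.75 for PMAIP1 to 0.99 for CHAC1. Among the genes left short of 2-fold by the median over a gene's probe sets are COL1A1, NR4A1, HSPA1L, CHORDC1, KLF2, TNFAIP3, DNAJB9, KDM4B and TMEM177. Their values include 0.18 for COL1A1 and -0.27 for KDM4B. CGAS, CLU, ULBP2, SESN3, FBXO32 and PLIN2 are left short by it too. The only other probe set above the floor was slightly higher than the control for 3 of the falls, with mean late log2 folds of 0.12 for FAM86B3P, 0.12 for FAM20C and 0.034 for TMEM177.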

How the data were processed

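Expression was measured in U937 cells on 9 arrays, 1 per condition, and 5 enter the comparisons. The deposited values are linear signal intensities from MAS5, per the submitters' processing notes. The scaling target and the version are not given in the sources used here. On the 5 arrays the 2% trimmed mean of the deposited values ran from 101 to 205, so each array was scaled to a trimmed mean of 100 over 54613 probe sets, leaving out 62 controls. Values under the median of 12.5 were raised to it before log2. Of all 54675 probe sets, 41097 had 1 gene symbol, 1801 several and 11777 none listed. The probe set with the highest mean signal stood for a gene.

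Named genes are the 25 highest rises and 25 lowest falls by weakest fold, the leading members of 36 lists, the 10 widest ranges in each direction, genes with both directions, and a fixed set, the ranked rises and falls leaving out clone names and genes with another probe set whose mean log2 fold had the opposite sign by 0.5 or more. Other names mark a limit or a setting and were chosen after their values were seen. The members and lists were chosen with earlier results of these data known. The number of arrays limits the precision. Probe signals carry no read depth. Python 3.11.15, numpy 2.4.6, pandas 2.3.3 and matplotlib 3.10.9 were used, and the steps were tested on simulated data. Changes were simulated only in genes of high signal, so that test does not cover calls at or near the floor.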

Additional observations from a re-analysis of the deposited data

Results flagged for a closer look

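Probe sets without exactly 1 gene symbol were left out of the report's counts. Of 13522 such probe sets, 6655 were above the floor on at least 1 of the 5 arrays, and 31 of those rose at least 2-fold on all 4 late arrays while 11 fell on all 4.

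IFIT3, an interferon-induced gene, was below the control on both 3 h arrays and above it on both 6 h arrays. The mean log2 fold at 3 h minus that at 6 h was -3.84. The difference was not tested.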

How the results depend on the processing

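No paired analysis was possible because each condition has 1 array and the labels carry no replicate numbers. With the floor at the 25th percentile, 310 genes rose and 230 fell on all 4 late arrays. The rises and falls were then 2047 and 1818 at 3 h and 2337 and 1648 at 6 h after 42 °C, and 1349 and 1421 at 3 h and 1555 and 1760 at 6 h after 44 °C. With the floor at the 70th percentile, 47 rose and 25 fell on all 4, with 168 and 304, 201 and 239, 103 and 123, and 271 and 271 on the arrays in that order. Scaling to the array median gave 256 rises and 1020 falls at 6 h after 42 °C, where the median of all genes shifted to -0.19. Against the array of 0 h after 44 °C, 175 genes rose and 86 fell on all 4, and 393 rose and 438 fell at 3 h after 44 °C. Passing against both that array and the control, a rule chosen after seeing the data, left 21 falls.

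Leaving out 1 late array in turn gave 98 to 165 rises and 52 to 114 falls shared by the other 3, and both highest counts came without the array of 3 h after 44 °C. The falls were 71 without the array of 6 h after 42 °C. The weakest log2 fold changed sign for TNFRSF12A (0.24) and MYL3 (0.016) against the 0 h array, for MAP3K6 (0.054), FAM20C (0.23) and DUSP1 (-0.27) with the median over a gene's probe sets, and for FAM86B3P (0.77) with the lower floor. Of the 91 rises and 42 falls, quantile normalisation kept 89 and 34, and the median over probe sets kept 55 and 27. Where no construction of the setting explains a shift, the cause was not tested. With 1 array per condition, neither the spread between cultures nor that between arrays can be measured, and low signals near the floor are the least precise.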
